A study of Homo sapiens with 3 samples.

Results

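The 10 genes described here encode the core proteins that make and use small RNAs. They are DROSHA, DGCR8, XPO5, DICER1, TARBP2, PRKRA, AGO1, AGO2, AGO3 and AGO4, and they were chosen by symbol for these roles, not by their values. All 10 were found among the 58333 genes of the table, and all 10 were among the 20858 genes that passed the filter on low values. Their RNA was measured in Cal62, an established human thyroid tumor cell line, with 2 libraries for each of 3 transfections. The control cells received Silencer Select Negative Control #1 (siControl), and the other groups received 1 of 2 siRNAs against ADAR1, s1007 (siADAR1 #1) or 119581 (siADAR1 #2). All 3 groups were grown in DMEM with FBS, and all were transfected with Lipofectamine RNAimax, so no library came from cells without a transfected siRNA. The libraries were made from poly(A)+ RNA and read in pairs of 75 bp. Each group is a culture of 1 cell line, and in bulk RNA fewer cells of a kind and less RNA per cell cannot be told apart.

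A primary microRNA transcript folds into hairpins that the Microprocessor, made of the nuclease DROSHA and its partner DGCR8, cuts out in the nucleus. Exportin-5, the product of XPO5, carries the hairpin to the cytoplasm, where DICER1 with TARBP2 or PRKRA trims it to a short duplex, and an Argonaute protein keeps 1 strand as a guide to matching mRNAs. A synthetic siRNA enters at the Argonaute step. ADAR1, the product of ADAR, deaminates adenosines in double-stranded RNA, including some primary microRNAs.

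Some genes of this set also carry microRNAs of their own. They are shown because a hairpin inside a host transcript is a substrate of the proteins that the set encodes. The DGCR8 gene holds hairpins for miR-3618 and miR-1306 in an annotated exon, at chr22:20085797-20085818 and chr22:20086072-20086093 on the plus strand of GRCh38, and cleavage of such hairpins in the DGCR8 mRNA by the Microprocessor is a known feedback. DICER1 holds miR-3173 in an intron, at chr14:95137961-95137982 on the minus strand. The mature sequences from RefSeq are given 5′ to 3′, with the seed, bases 2 to 8, in capitals.
hsa-miR-3618: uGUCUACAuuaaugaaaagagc
hsa-miR-1306-5p: cCACCUCCccugcaaacgucca
hsa-miR-3173-5p: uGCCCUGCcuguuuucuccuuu
The gene rows of MIR3618 and MIR1306 had 0 reads in all 6 libraries, so nothing on these microRNAs was measured beyond their hosts. For each library 3 reads is the limit that a count of 0 allows, which was 2.81 to 4.39 normalized counts, counting error only.

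The level of a gene is given as its normalized count, the reads counted on or estimated for the gene divided by the size factor of the library. A change is given as log2FC, the difference of mean log2 values between groups, with the standard error (SE) of the fit over all 6 libraries. A gene was called when its adjusted p-value (limma, Benjamini-Hochberg over all 20858 genes tested) was under 0.05 and its log2FC was beyond 0.5 in either direction. The libraries held 30114840 to 50029763 reads on genes, with a median of 43005907. ADAR itself was at 10906 and 11701 normalized counts in siControl, at 1328 and 2246 with siADAR1 #1 and at 1663 and 2928 with siADAR1 #2, so every siADAR1 library lay below every siControl library. It fell by 2.71 (SE 0.30) and 2.35 (SE 0.30) on the log2 scale, with adjusted p-values of 0.00295 and 0.00128 (limma). Of the thyroid follicular markers PAX8 was at 2242 to 15557 reads, while SLC5A5 and NKX2-1 were at 0 to 15 reads in every library. The summed thyroid markers were 14298 and 16115 normalized counts in siControl, 10510 and 15226 with siADAR1 #1 and 2819 and 5705 with siADAR1 #2. PAX8 made up most of these sums (2542 and 5484 with siADAR1 #2), and TSHR was at 70.8 and 73.4 in siControl and at 95.2 and 106.9 with siADAR1 #2. The leukocyte gene PTPRC had at most 5 reads, and CD3E had 0. Of the 6 fibroblast markers 2 passed the filter, and both fell with each siRNA. Their summed level was 5834 to 7176 normalized counts in siControl, 3377 to 3986 with siADAR1 #1 and 2866 to 3995 with siADAR1 #2. The leukocyte markers summed to 293 to 457, 558 to 735 and 823 to 1597 in the same groups, and the endothelial markers to 94 to 118, 170 to 174 and 104 to 128. Most of the leukocyte sum was CD68 (245 and 417 in siControl, 424.6 and 610.5 with siADAR1 #1, 796 and 1566 with siADAR1 #2). CD14 was at 44.6 and 34.7 in siControl, at 118.8 and 113.1 with siADAR1 #1 and at 21.5 and 30.8 with siADAR1 #2. The part of these differences in the results on small RNA genes was not tested.

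The 10 genes were compared with siControl for each siRNA and between the siRNAs. With siADAR1 #1, 1 of the 10 genes was called, DROSHA, against 16.8% of all genes tested and 10.6% for genes called lower. With siADAR1 #2, 3 of the 10 were called, DICER1, AGO1 and PRKRA, all lower, against 26.6% of all genes and 15.5% for genes called lower. No gene of the set was called with both, against 6.75% of all genes, a share that leaves less than 1 gene of 10. Between the siRNAs DICER1, AGO1 and PRKRA were lower with siADAR1 #2, against 32.8% of all genes called and 16.1% for genes called lower. The comparisons with siControl share the 2 siControl libraries and are given side by side.

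**Figure D1:**
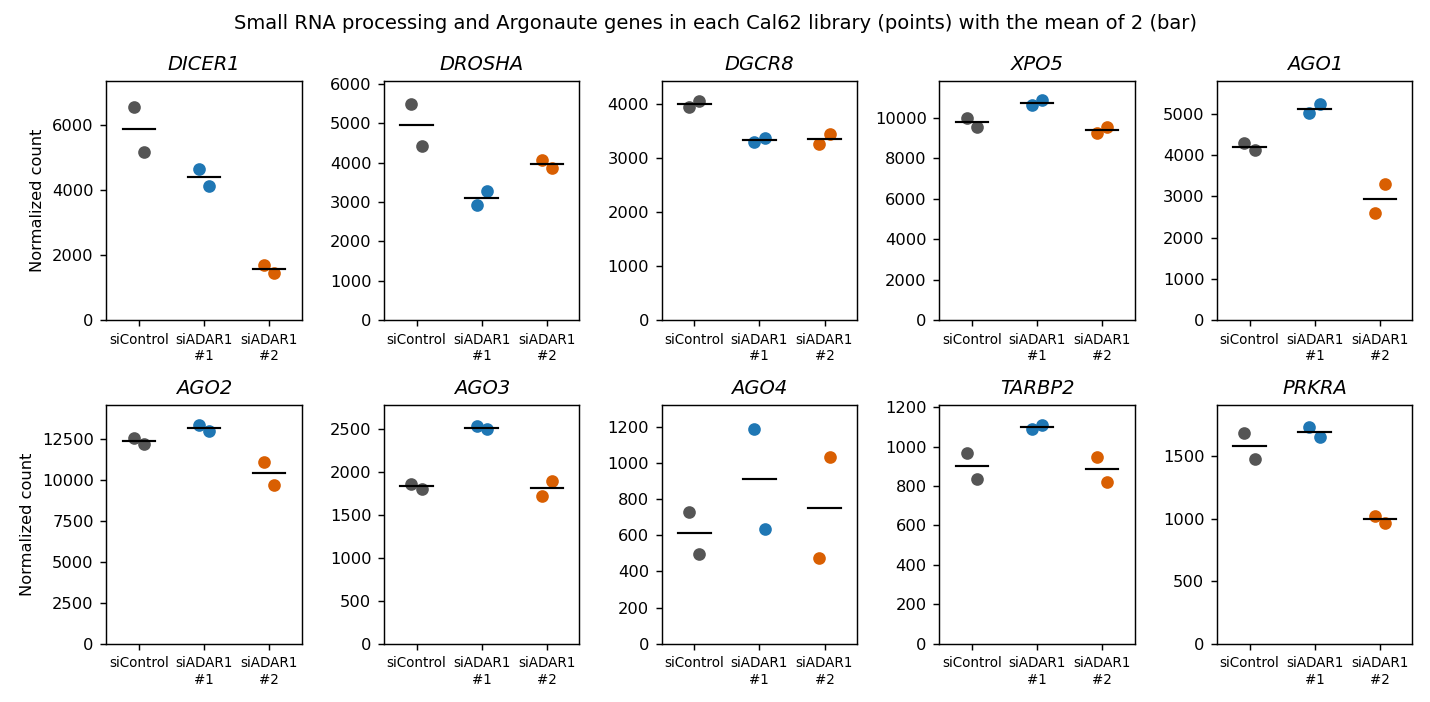
Normalized counts of the 10 genes (vertical axes, each starting at 0) in the 2 libraries of siControl, siADAR1 #1 and siADAR1 #2, where points are libraries and bars are means. The siADAR1 #2 libraries of DICER1 sit at 1462 and 1682, below the 4 others, while the libraries of AGO4 are spread over 474 to 1187 with the groups overlapping.

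DROSHA, the nuclease of the Microprocessor (ENSG00000113360, chr5:31400494-31532196, minus strand, GRCh38), was at 5496 and 4430 normalized counts in siControl, at 2916 and 3277 with siADAR1 #1 and at 4073 and 3871 with siADAR1 #2. All 4 siADAR1 libraries were below both siControl libraries, and the siADAR1 #1 libraries were the lowest. DROSHA fell by 0.67 on the log2 scale with siADAR1 #1 (SE 0.14, adjusted p = 0.0158, limma), to 62.4% of the siControl mean. The log2FC with siADAR1 #2 was -0.31 (SE 0.14, 95% interval -0.63 to 0.01) and was not called. The difference between the siRNAs was 0.36 (adjusted p = 0.0764, limma) and did not pass. The call with siADAR1 #1 was lost without siControl replicate 1 (-0.52, adjusted p = 0.101) and without siADAR1 #1 replicate 1 (-0.59, adjusted p = 0.0837), without the filter (adjusted p = 0.159) and without the trend of the variance in limma (adjusted p = 0.0778).

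DGCR8, the double-stranded RNA-binding partner of DROSHA (ENSG00000128191, chr22:20080221-20111877, plus strand), was at 3944 and 4058 normalized counts in siControl, at 3295 and 3377 with siADAR1 #1 and at 3260 and 3436 with siADAR1 #2. The siADAR1 libraries of both kinds were lower than siControl and overlapped each other. The log2FC was -0.26 with each siRNA (SE 0.11 in both, adjusted p = 0.136 and 0.113, limma), to 83.4% and 83.7% of siControl, and neither was called. Between the siRNAs the log2FC was 0.01, with a 95% interval from -0.24 to 0.26. The ratio of DROSHA to DGCR8, each per kb of annotated exons, was 1.31 and 1.03 in siControl, 0.833 and 0.914 with siADAR1 #1 and 1.18 and 1.06 with siADAR1 #2. Per kb of annotated exons, the siADAR1 #1 libraries were thus the ones in which DGCR8 had the higher level. This depends on the length used. Per kb of the longest transcript, DROSHA and DGCR8 overlapped in siControl and with siADAR1 #2.

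XPO5, the export receptor for hairpin precursors (ENSG00000124571, chr6:43522334-43576038, minus strand), moved little. It was at 10009 and 9562 normalized counts in siControl, at 10621 and 10857 with siADAR1 #1 and at 9260 and 9517 with siADAR1 #2. The siADAR1 #1 libraries were the highest and the siADAR1 #2 libraries the lowest, with no overlap between groups. The log2FC was 0.13 with siADAR1 #1 (SE 0.10, adjusted p = 0.397) and -0.06 with siADAR1 #2 (SE 0.10, adjusted p = 0.701, limma). The 95% intervals, -0.10 to 0.36 and -0.29 to 0.17, lie inside the limit of 0.5 used for a call. An antisense neighbour, POLR1C, shares 348 exon bases with XPO5 and had 2076 to 3435 reads. Whether the counting used strand is not given in the sources used here, so reads from the shared bases could belong to either gene.

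DICER1, the nuclease that cuts hairpin precursors to duplexes (ENSG00000100697, chr14:95086228-95158010, minus strand), had the largest change of the set. It was at 6555 and 5172 normalized counts in siControl, at 4651 and 4135 with siADAR1 #1 and at 1682 and 1462 with siADAR1 #2. The groups did not overlap, and each siADAR1 #2 library was far below the lowest of the others. DICER1 fell by 1.89 on the log2 scale with siADAR1 #2 (SE 0.15, adjusted p = 0.000338, limma), 3.71-fold, to 26.8% of siControl. With siADAR1 #1 the log2FC was -0.41 (SE 0.15, adjusted p = 0.104), at 74.9% of siControl, and was not called. The difference between the siRNAs, -1.48 (adjusted p = 0.000432, limma), was itself called. The call with siADAR1 #2 and that between the siRNAs held in all 18 alternatives, which gave log2FC values from -2.06 to -1.72 and from -1.61 to -1.38. The antisense gene DICER1-AS1 shares 80 exon bases with DICER1 and had 40 to 76 reads in a library. Its log2FC was 0.04 and 0.09 with the siRNAs, and neither was called.

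PRKRA (PACT), a double-stranded RNA-binding partner of DICER1 that also activates the kinase PKR (ENSG00000180228, chr2:178431292-178451512, minus strand), differed between the siRNAs as well. It was at 1686 and 1479 normalized counts in siControl, at 1729 and 1652 with siADAR1 #1 and at 1021 and 965 with siADAR1 #2. The siADAR1 #2 libraries were below the 4 others, and the siADAR1 #1 libraries overlapped siControl. PRKRA fell by 0.67 with siADAR1 #2 (SE 0.13, adjusted p = 0.00764, limma), to 62.7% of siControl, and its log2FC was 0.10 with siADAR1 #1 (SE 0.13, adjusted p = 0.662). The difference between the siRNAs was -0.77 (adjusted p = 0.00331, limma) and was called in all 18 alternatives. The call against siControl was lost without siControl replicate 1 (-0.57, adjusted p = 0.0622). PRKRA shares 1068 exon bases with the antisense transcript CHROMR, which had 206 to 537 reads and log2FC values of -0.65 and -0.27 that were not called, and 132 bases with PJVK, which had 9 to 31 reads.

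TARBP2 (TRBP), the other double-stranded RNA-binding partner of DICER1 and an inhibitor of PKR (ENSG00000139546, chr12:53500921-53506431, plus strand), did not follow PRKRA. It was at 969 and 836 normalized counts in siControl, at 1087 and 1108 with siADAR1 #1 and at 949 and 822 with siADAR1 #2. The siADAR1 #1 libraries were the highest, and the siADAR1 #2 libraries overlapped siControl. The log2FC was 0.28 with siADAR1 #1 (SE 0.15, adjusted p = 0.236) and -0.03 with siADAR1 #2 (SE 0.15, 95% interval -0.38 to 0.32, limma). TARBP2 shares 541 exon bases with the antisense transcript ENSG00000270175, which had 8 to 48 reads. The log2FC of that transcript was -0.31 with siADAR1 #1, not called, and 1.62 with siADAR1 #2 (adjusted p = 0.0126, limma), called. The ratio of TARBP2 to PRKRA per kb of annotated exons was 1.70 and 1.67 in siControl, 1.85 and 1.98 with siADAR1 #1 and 2.74 and 2.51 with siADAR1 #2, so the siADAR1 #2 libraries had the highest ratios. EIF2AK2, which encodes PKR, was at 6072 and 8919 normalized counts in siControl, 4137 and 9445 with siADAR1 #1 and 4880 and 13738 with siADAR1 #2. Its libraries overlapped in all groups, and replicate 2 was the higher library in each group. Its log2FC values of -0.24 (SE 0.51) and 0.15 (SE 0.51) were not called.

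**Figure D2:**
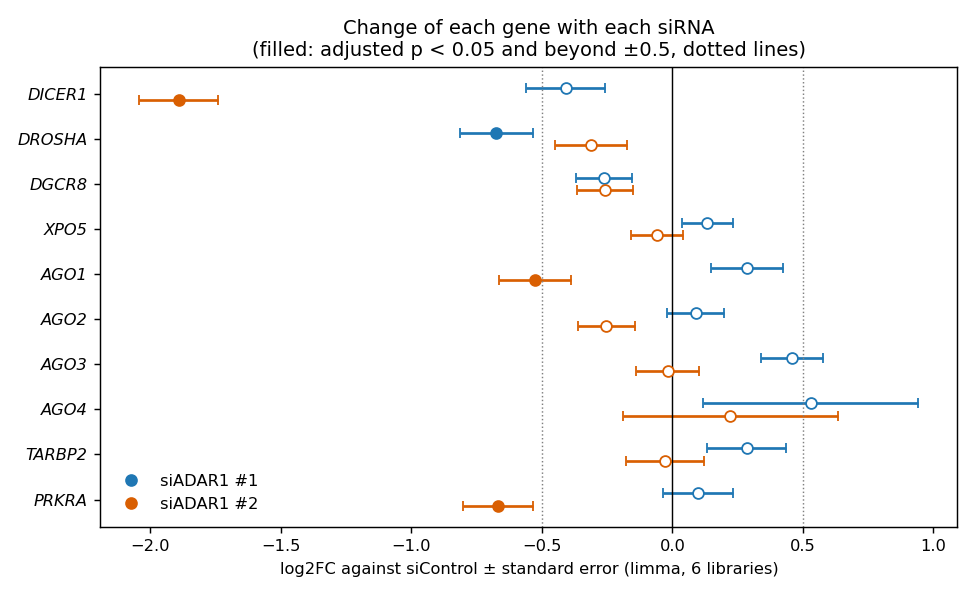
log2FC of the 10 genes against siControl (horizontal axis) for siADAR1 #1 and siADAR1 #2, with the SE of the limma fit as error bars, filled points for called genes and dotted lines at the limit of 0.5. DICER1 with siADAR1 #2, at -1.89, lies apart from the other points, and AGO4 has the widest error bars.

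The 4 Argonaute genes encode the proteins that hold the guide strand, and AGO2 is the one that cuts a fully matched target. AGO2 (ENSG00000123908, chr8:140520156-140635633, minus strand) was at 12532 and 12193 normalized counts in siControl, at 13329 and 12971 with siADAR1 #1 and at 11096 and 9700 with siADAR1 #2. The siADAR1 #1 libraries were the highest and the siADAR1 #2 libraries the lowest. The log2FC was 0.09 with siADAR1 #1 (SE 0.11, adjusted p = 0.625) and -0.25 with siADAR1 #2 (SE 0.11, adjusted p = 0.122), and neither was called. The difference between the siRNAs was -0.34 (adjusted p = 0.0411, limma), under the limit of 0.5.

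AGO4, AGO1 and AGO3 lie in tandem on the plus strand of chromosome 1 in a stretch of 264485 bases, with 11917 bases between AGO4 and AGO1 and 185 bases between AGO1 and AGO3. Their values are given side by side. AGO1 (ENSG00000092847, chr1:35869808-35930532) was at 4297 and 4116 normalized counts in siControl, at 5019 and 5232 with siADAR1 #1 and at 2583 and 3302 with siADAR1 #2. The siADAR1 #1 libraries were the highest and the siADAR1 #2 libraries the lowest, with no overlap. AGO1 fell by 0.53 with siADAR1 #2 (SE 0.14, adjusted p = 0.0243, limma), to 70.0% of siControl, just past the limit of 0.5. With siADAR1 #1 its log2FC was 0.29 (SE 0.14, adjusted p = 0.2). The difference between the siRNAs was -0.81 (adjusted p = 0.00315, limma), and this call was lost only when no filter was used (adjusted p = 0.0656).

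The call of AGO1 against siControl depended on single libraries. It was lost without siControl replicate 1 (-0.49, adjusted p = 0.122), without siControl replicate 2 (-0.56, adjusted p = 0.0837), and without siADAR1 #2 replicate 1 (-0.35, adjusted p = 0.164). It was also lost after quantile normalization (-0.38, adjusted p = 0.0551), after correction for GC content and length (-0.47), without the filter (adjusted p = 0.18) and without the trend of the variance (adjusted p = 0.0905). The sign was negative in all 18 alternatives.

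AGO3 (ENSG00000126070, chr1:35930718-36072500) was at 1869 and 1800 normalized counts in siControl, at 2541 and 2502 with siADAR1 #1 and at 1726 and 1900 with siADAR1 #2. The siADAR1 #1 libraries were above all others, and the siADAR1 #2 libraries overlapped siControl. The log2FC with siADAR1 #1 was 0.46 (SE 0.12, adjusted p = 0.0346, limma), at 137.5% of siControl, under the limit of 0.5. It went past that limit with median-centred libraries (0.60), with quantile normalization (0.55) and with the GC and length trend removed (0.64). Median-centring moved the median log2FC of all genes with siADAR1 #1 from -0.02 to 0.12. With siADAR1 #2 the log2FC was -0.02 (95% interval -0.30 to 0.26). Between the siRNAs it was -0.48 (adjusted p = 0.0163, limma), not called. It was called with median-centred libraries (-0.61), with the GC and length trend removed (-0.60) and without siADAR1 #2 replicate 2 (-0.55).

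AGO4 (ENSG00000134698, chr1:35808016-35857890) was at 726 and 494 normalized counts in siControl, at 1187 and 632 with siADAR1 #1 and at 474 and 1030 with siADAR1 #2. The groups overlapped, and on the log2 scale replicates of the same transfection differed more than the group means. The log2FC values, 0.53 with siADAR1 #1 (SE 0.41, adjusted p = 0.421) and 0.22 with siADAR1 #2 (SE 0.41, adjusted p = 0.733, limma), were not called. Its largest difference between replicates was 1.12 on the log2 scale, and 12.2% of the genes tested had a larger one. The same quantity was 0.07 to 0.35 for the 9 other genes, against a median of 0.44 over all genes tested. A change of AGO4 up to 1.48 with siADAR1 #1 was inside its 95% interval, so these libraries do not bound it closely.

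To compare the genes with each other, normalized counts were divided by the kb of annotated exons. In siControl the order of these levels per kb was XPO5 (1154), AGO2 (780), DROSHA (638), DGCR8 (546), AGO1 (300), DICER1 (265), TARBP2 (221), PRKRA (131), AGO3 (86.7) and AGO4 (82.2). Neighbours in this order whose siControl libraries overlapped were AGO1 with DICER1, DICER1 with TARBP2, and AGO3 with AGO4. With siADAR1 #2 DICER1 was last, at 71.0 ± 7.02 (SD, n = 2) against 265 ± 44.1 in siControl, and PRKRA was next to it at 82.3 ± 3.24. The order depends on the length used. Per kb of the longest transcript TARBP2 (487) and PRKRA (407) stood above AGO1 (307), and DROSHA, DGCR8 and AGO2 had levels of 916, 852 and 847. On that scale DICER1 was not last with siADAR1 #2, at 124 against 103 for AGO4 and 92.2 for AGO3.

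Over the 4 Argonaute genes the level per kb summed to 1283 and 1214 in siControl, 1478 and 1394 with siADAR1 #1 and 1030 and 1076 with siADAR1 #2. The sums did not overlap between groups, and those with siADAR1 #2 were the lowest. AGO2 held 62.5% of this sum in siControl, 57.8% with siADAR1 #1 and 62.5% with siADAR1 #2, and AGO1 held 24.0%, 25.4% and 19.9%. The ratio of AGO1 to AGO3 per kb was 3.46 and 3.44 in siControl, 2.98 and 3.15 with siADAR1 #1 and 2.25 and 2.62 with siADAR1 #2. The ratio of DICER1 to DROSHA per kb was 0.419 and 0.410 in siControl, 0.560 and 0.443 with siADAR1 #1 and 0.145 and 0.133 with siADAR1 #2. Levels of DICER1 were thus lowest against DROSHA in the siADAR1 #2 libraries, both of which lay below the 4 others.

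As a set, 7 of the 10 genes had a log2FC above 0 with siADAR1 #1 and 1 of 10 with siADAR1 #2. The median log2FC was 0.12 with siADAR1 #1 and -0.26 with siADAR1 #2, against -0.02 and -0.01 over all genes tested. The libraries of siADAR1 #1 did not overlap siControl for 8 of the 10, 5 higher and 3 lower, where 61.2% of all genes did not overlap, 28.4% higher and 32.8% lower. With siADAR1 #2 this was 7 of 10, all lower, against 67.2% of all genes in either direction and 35% for lower ones. Between the siRNAs 8 of 10 did not overlap, 7 of them lower with siADAR1 #2, against 69.3% and 34.9%. A list of 10 chosen genes was given no test of its own.

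When the 4 siADAR1 libraries were treated as 1 group, 0 of the 10 genes and 0 of all genes (0%) were called (limma). An unadjusted p-value under 0.05 was found for 1 gene of the set, DROSHA (log2FC -0.49, limma), and for 14% of all genes. DICER1 (-1.15, adjusted p = 0.394) and DGCR8 (-0.26, adjusted p = 0.457) also lay below siControl in all 4 libraries, and with DROSHA these 3 genes compare with 28.6% of all genes without overlap and 16.6% that were lower. The average of the changes with both siRNAs, taken from the fit with 3 groups, called DICER1 (-1.15, adjusted p = 0.00285, limma). The values behind that average were -0.41 with siADAR1 #1 and -1.89 with siADAR1 #2.

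The wider pathway was followed with 7 lists of 87 genes, of which 81 passed the filter. With siADAR1 #1, 18 of the 81 were called, 5 higher and 13 lower, and with siADAR1 #2 there were 19, 6 higher and 13 lower. Between the siRNAs 35 of 81 were called, 16 higher and 19 lower. The split depended on the scaling. With median-centred libraries it was 12 higher and 12 lower with siADAR1 #1 and 14 higher and 27 lower between the siRNAs, and with quantile normalization it was 12 higher and 8 lower with siADAR1 #2. The split of all genes moved in the same direction, in the same order from 1290 higher and 2212 lower to 1951 and 1706, from 3488 and 3350 to 2854 and 4274, and from 2309 and 3232 to 2686 and 2826. With both siRNAs 3 genes were called lower, LIMD1, MIR17HG and DLEU2, 0 were called higher with both, and 2 were called in opposite directions, MIR100HG and MIR4435-2HG. Of all genes tested 3.41% were called lower with both, 1.79% higher with both and 1.55% in opposite directions. The single comparisons, with siADAR1 #1, with siADAR1 #2 and between the siRNAs, stand against 16.8%, 26.6% and 32.8% of all genes called. Higher were 6.18%, 11.1% and 16.7%, and lower were 10.6%, 15.5% and 16.1%. The counts by list below stand against the same shares. When each library was left out in turn, 3 of the 18 calls with siADAR1 #1 held every time (STIP1, PARN and MIR100HG), and 10 of the 19 with siADAR1 #2 did. Genes that the naming rule does not cover (TNRC6A, TNRC6B, TNRC6C, CNOT3, CNOT6, CNOT7, CNOT8, EDC3, DIS3L2, MIR22HG, MIR210HG, MIR222HG and MIRLET7BHG) were chosen after their values were seen.

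**Figure D3:**
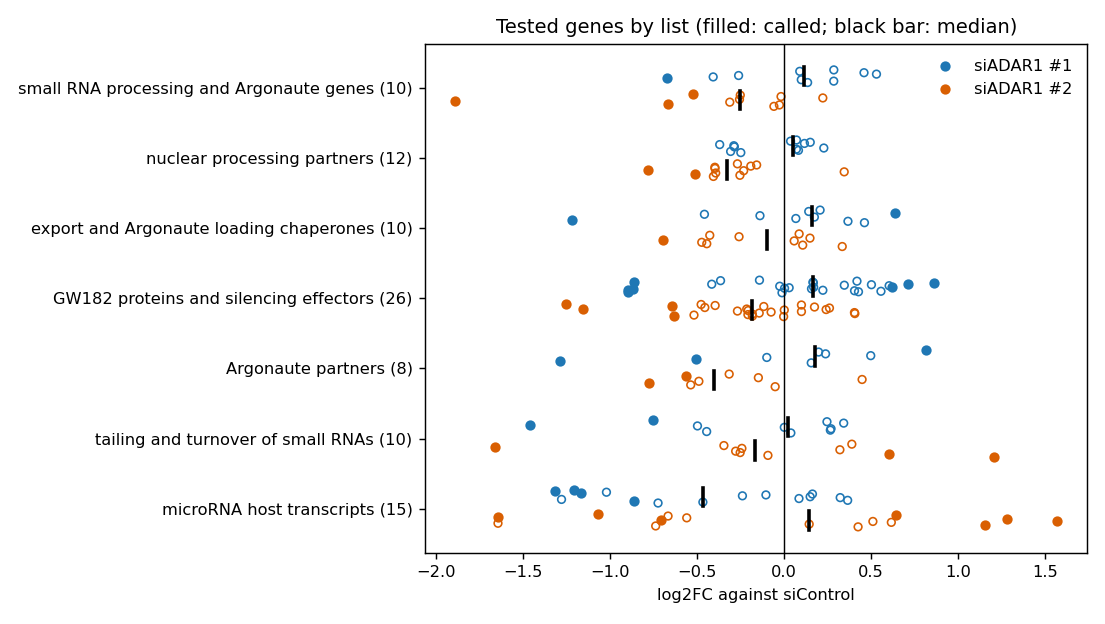
log2FC against siControl (horizontal axis) of the tested genes of each list, in parentheses how many, for siADAR1 #1 and siADAR1 #2, with called genes filled and list medians as black bars. The medians with siADAR1 #2 lie below 0 for all lists except the microRNA host transcripts (0.14), whose median with siADAR1 #1 was -0.47.

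Among 12 nuclear partners of the Microprocessor and its transcripts, 0 were called with siADAR1 #1 and 2 were called lower with siADAR1 #2, at median log2FC values of 0.05 and -0.33. KHSRP, an RNA-binding protein that promotes maturation of some hairpins, was at 26145 and 23656 normalized counts in siControl, 19495 and 21225 with siADAR1 #1 and 13908 and 15052 with siADAR1 #2. It fell by 0.78 with siADAR1 #2 (adjusted p = 0.00185, limma), with the siADAR1 #2 libraries below the 4 others. SAFB2, which helps the processing of weak hairpins in clusters, fell by 0.51 with siADAR1 #2 (adjusted p = 0.0203). That call was lost without siControl replicate 1 (-0.54, adjusted p = 0.0797), without siControl replicate 2 (-0.48) and without siADAR1 #2 replicate 2 (-0.38).

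Of 10 genes for export and for the chaperones that load Argonaute, 1 was called higher and 1 lower with siADAR1 #1, and 1 was called lower with siADAR1 #2. STIP1 (HOP), the co-chaperone that links HSP70 with HSP90, was at 21736 and 19420 normalized counts in siControl, 7753 and 10058 with siADAR1 #1 and 15711 and 14490 with siADAR1 #2. It fell by 1.22 with siADAR1 #1 (adjusted p = 0.00323, limma) and had a log2FC of -0.45 with siADAR1 #2 (adjusted p = 0.0507). The inducible cytosolic chaperone gene HSP90AA1 was higher with siADAR1 #1 (0.64, adjusted p = 0.00877) and stood at -0.26 with siADAR1 #2 (adjusted p = 0.112), and its call was lost without siADAR1 #1 replicate 1 and with quantile normalization. HSPA8, the constitutive HSP70, fell by 0.70 with siADAR1 #2 (adjusted p = 0.00672), a call lost with quantile normalization (-0.24). RAN, the GTPase that drives exportin-5, had log2FC values of 0.07 and -0.47 and was not called against siControl. Between the siRNAs 6 of the 10 were called, 2 higher and 4 lower with siADAR1 #2, against 32.8% of all genes, 16.7% higher and 16.1% lower.

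The 26 GW182 proteins and silencing effectors act after a guide has found its target. Among them are factors for removing the poly(A) tail and the cap of the mRNA. With siADAR1 #1, 3 were called higher (CNOT7, CNOT8 and EDC3) and 4 lower (TNRC6C, CNOT3, PAN2 and PABPC1). With siADAR1 #2, 0 were called higher and 4 lower (TNRC6B, CNOT1, CNOT6 and DCP1A). No gene of this list was called with both. The 3 higher genes and CNOT3 lost their calls with siADAR1 #1 without siControl replicate 1. CNOT8, EDC3 and CNOT3 lost them also without siControl replicate 2 and without siADAR1 #1 replicate 1. CNOT6 lost its call with siADAR1 #2 without siControl replicate 1 or siADAR1 #2 replicate 2. CNOT1, the scaffold of the CCR4-NOT deadenylase, was at 31892 and 27247 normalized counts in siControl, 27311 and 26114 with siADAR1 #1 and 12814 and 11881 with siADAR1 #2. The siADAR1 #2 libraries were below the 4 others. CNOT1 fell by 1.26 with siADAR1 #2 (adjusted p = 0.000431, limma), a call that held in all 18 alternatives, and its log2FC was -0.14 with siADAR1 #1.

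DCP1A, a cofactor of the decapping enzyme, fell by 1.16 with siADAR1 #2 (adjusted p = 0.00186) and was at 0.50 with siADAR1 #1 (adjusted p = 0.071). PAN2, a deadenylase that acts first on long tails, fell by 0.90 with siADAR1 #1 (adjusted p = 0.00627) and was at 0.41 with siADAR1 #2 (adjusted p = 0.061). PABPC1, the poly(A)-binding protein that recruits deadenylases, fell by 0.87 with siADAR1 #1 (adjusted p = 0.00751) and was at -0.14 with siADAR1 #2. All 4 of these genes differed between the siRNAs, DCP1A by -1.66, CNOT1 by -1.11, PAN2 by 1.31 and PABPC1 by 0.73. The calls of PAN2 and PABPC1 with siADAR1 #1 were lost without siControl replicate 1, and that of PABPC1 also without siADAR1 #1 replicate 1.

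The 3 GW182 genes encode the scaffolds that bind Argonaute directly. TNRC6A was at 15217 and 10913 normalized counts in siControl, 20667 and 17371 with siADAR1 #1 and 9111 and 8877 with siADAR1 #2. TNRC6B was at 11782 and 8214, 15646 and 11180, and 6251 and 6413 in the same groups. TNRC6C was at 949 and 797, 526 and 411, and 821 and 713. The siADAR1 #2 libraries of TNRC6A and TNRC6B were below the 4 others, and the siADAR1 #1 libraries of TNRC6B overlapped siControl. For TNRC6C the siADAR1 #1 libraries were below the 4 others. Between the siRNAs the log2FC was -1.07 for TNRC6A (adjusted p = 0.00207), -1.06 for TNRC6B (adjusted p = 0.00523) and 0.72 for TNRC6C (adjusted p = 0.0186, limma). The call of TNRC6C was lost without siADAR1 #1 replicate 2 and without siADAR1 #2 replicate 1, and with median-centred libraries. Against siControl TNRC6B with siADAR1 #2 was at the threshold (-0.64, adjusted p = 0.0499) and was lost in 11 of 18 alternatives, among them without siControl replicate 1 and without either siADAR1 #2 library, and TNRC6A was not called. TNRC6C fell by 0.90 with siADAR1 #1 (adjusted p = 0.0161), a call lost without either siControl library.

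Of 9 partners of Argonaute 8 passed the filter, and TRIM71 did not. With siADAR1 #1, 1 was called higher and 2 lower, and with siADAR1 #2, 2 were called lower. LIMD1, a LIM-domain protein that bridges Argonaute to its effectors, was at 2180 and 2281 normalized counts in siControl, 1505 and 1628 with siADAR1 #1 and 1235 and 1372 with siADAR1 #2. All 4 siADAR1 libraries were below siControl. It fell by 0.51 with siADAR1 #1 (adjusted p = 0.0303) and by 0.78 with siADAR1 #2 (adjusted p = 0.00344, limma). The call with siADAR1 #1 was lost without either siControl library, without siADAR1 #1 replicate 1 and in 5 of the other alternatives, and the call with siADAR1 #2 held in all 18.

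AJUBA, a relative of LIMD1, moved the other way with siADAR1 #1, where it was higher by 0.82 (adjusted p = 0.0146), and stood at -0.32 with siADAR1 #2 (adjusted p = 0.189). MOV10, a helicase found with Argonaute, fell by 1.29 with siADAR1 #1 (adjusted p = 0.0117) and was at -0.54 with siADAR1 #2 (adjusted p = 0.139). FMR1, the fragile X protein, fell by 0.56 with siADAR1 #2 (adjusted p = 0.0176) and was at 0.20 with siADAR1 #1. The calls of AJUBA and MOV10 were lost without either siControl library or without siADAR1 #1 replicate 1, and that of FMR1 without siControl replicate 1 or siADAR1 #2 replicate 1.

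Among 10 genes for tailing and turnover of small RNAs, 2 were called lower with siADAR1 #1, and 2 higher and 1 lower with siADAR1 #2. LIN28B, which blocks the processing of let-7 hairpins, was at 1077 and 627 normalized counts in siControl, 1135 and 957 with siADAR1 #1 and 286 and 233 with siADAR1 #2. The siADAR1 #2 libraries were below the 4 others. LIN28B fell by 1.66 with siADAR1 #2 (adjusted p = 0.00288, limma) and was at 0.34 with siADAR1 #1 (adjusted p = 0.415). Its paralog LIN28A was at 15.9 to 31.8 normalized counts and was not called.

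ZSWIM8, the ubiquitin ligase adaptor for target-directed microRNA decay, was at 2461 and 2356 normalized counts in siControl, 2711 and 2255 with siADAR1 #1 and 6355 and 4853 with siADAR1 #2. It was higher with siADAR1 #2 (adjusted p = 0.00149, limma), at 232.7% of siControl, and was at 0.04 with siADAR1 #1. TUT7, which adds uridines to let-7 hairpins, was higher by 0.60 with siADAR1 #2 (adjusted p = 0.0116), a call lost without either siControl library or without siADAR1 #2 replicate 1. PARN, a poly(A)-specific ribonuclease, was at 3125 and 3009 normalized counts in siControl, 977 and 1261 with siADAR1 #1 and 2599 and 2581 with siADAR1 #2. PARN fell by 1.46 with siADAR1 #1 (adjusted p = 0.00249, limma), with the siADAR1 #1 libraries below the 4 others, and was at -0.24 with siADAR1 #2. DIS3L2, the exonuclease for uridylated hairpins, fell by 0.76 with siADAR1 #1 (adjusted p = 0.0193), a call lost without either siControl library or without siADAR1 #1 replicate 1.

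The 4 genes of the PIWI clade, the germline relatives of the Argonautes, did not pass the filter. They were at 0 to 11.2 normalized counts in every library.

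Host transcripts of microRNAs are long RNAs from which hairpins are cut, so their poly(A)+ level is that of the host and says nothing of the mature microRNA. Of 16 hosts 15 passed the filter, and MIR181A1HG did not. With siADAR1 #1, 0 were called higher and 4 lower. With siADAR1 #2, 4 were called higher (MIR100HG, MIR4435-2HG, MIR22HG and MIR210HG) and 3 lower (MIR17HG, DLEU2 and MIR222HG). The call of MIR210HG was lost without any 1 of the 4 libraries compared, and that of MIR222HG without siControl replicate 1 or siADAR1 #2 replicate 1. Mature microRNAs of the hosts named by the rule are shown by host, with the seed in capitals, because the hosts that fell with both siRNAs carry families that share seeds. From MIR17HG, on the plus strand of chromosome 13, the AAAGUGC seed is shared by miR-17 and miR-20a, the GUGCAAA seed by miR-19a and miR-19b, and miR-18a and miR-92a have seeds of their own.
hsa-miR-17-5p: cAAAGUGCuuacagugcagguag
hsa-miR-20a-5p: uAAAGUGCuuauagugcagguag
hsa-miR-18a-5p: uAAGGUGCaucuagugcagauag
hsa-miR-19a-3p: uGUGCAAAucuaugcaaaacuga
hsa-miR-19b-3p: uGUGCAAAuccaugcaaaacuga
hsa-miR-92a-3p: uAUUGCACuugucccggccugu
From DLEU2, on the minus strand of chromosome 13, miR-15a and miR-16 share a seed and lie in an intron, at chr13:50049167-50049188 and chr13:50049027-50049048.
hsa-miR-15a-5p: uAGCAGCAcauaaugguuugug
hsa-miR-16-5p: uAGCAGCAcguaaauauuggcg
From MIR100HG, on the minus strand of chromosome 11, come let-7a, miR-100 and miR-125b from introns, each with a seed of its own, and MIR4435-2HG, on the minus strand of chromosome 2, carries miR-4435.
hsa-let-7a-5p: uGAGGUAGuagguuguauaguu
hsa-miR-100-5p: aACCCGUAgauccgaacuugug
hsa-miR-125b-5p: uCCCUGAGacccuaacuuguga
hsa-miR-4435: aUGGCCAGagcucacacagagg

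MIR17HG (chr13:91347686-91397592) was at 335 and 386 normalized counts in siControl, 184 and 137 with siADAR1 #1 and 91.9 and 139 with siADAR1 #2. All 4 siADAR1 libraries were below siControl. It fell by 1.17 with siADAR1 #1 (SE 0.27, adjusted p = 0.0242) and by 1.65 with siADAR1 #2 (SE 0.27, adjusted p = 0.00358, limma). The call with siADAR1 #1 was lost whichever of the siControl or siADAR1 #1 libraries was left out, with log2FC values of -1.38 to -0.95.

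DLEU2 (chr13:49956670-50125720) was at 712 and 831 normalized counts in siControl, 254 and 431 with siADAR1 #1 and 320 and 416 with siADAR1 #2. Again all 4 siADAR1 libraries were below siControl, and those of the siRNAs overlapped. It fell by 1.21 (adjusted p = 0.0203) and by 1.07 (adjusted p = 0.0202, limma). Both calls were lost without either siControl library, that with siADAR1 #1 also without siADAR1 #1 replicate 1, and that with siADAR1 #2 also without siADAR1 #2 replicate 1.

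MIR100HG and MIR4435-2HG moved in opposite directions with the siRNAs. MIR100HG (chr11:122028325-122556721) was at 4543 and 3991 normalized counts in siControl, 1583 and 1835 with siADAR1 #1 and 7151 and 6205 with siADAR1 #2. It fell by 1.32 with siADAR1 #1 (adjusted p = 0.00259) and was higher by 0.65 with siADAR1 #2 (adjusted p = 0.0101, limma), and the latter call was lost without siControl replicate 2 or siADAR1 #2 replicate 1. MIR4435-2HG (chr2:111006015-111523376) was at 2302 and 1741 in siControl, 1174 and 1026 with siADAR1 #1 and 5009 and 3986 with siADAR1 #2. It fell by 0.87 with siADAR1 #1 (adjusted p = 0.0163) and was higher by 1.16 with siADAR1 #2 (adjusted p = 0.00269), and the first of these calls was lost without siControl replicate 1. The groups did not overlap for either host, and the differences between the siRNAs, 1.96 (adjusted p = 0.000146) and 2.02 (adjusted p = 0.000266, limma), were called in all 18 alternatives.

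MIR22HG, the host of miR-22, was at 1097 and 742 normalized counts in siControl, 1173 and 853 with siADAR1 #1 and 3429 and 2099 with siADAR1 #2, and was higher by 1.57 with siADAR1 #2 (adjusted p = 0.00505, limma). MIRLET7BHG, which also carries let-7a, was at 508 and 442 in siControl, 223 and 366 with siADAR1 #1 and 617 and 656 with siADAR1 #2. It was not called against siControl, and it differed between the siRNAs by 1.15 (adjusted p = 0.00811, limma).

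**Figure D4:**
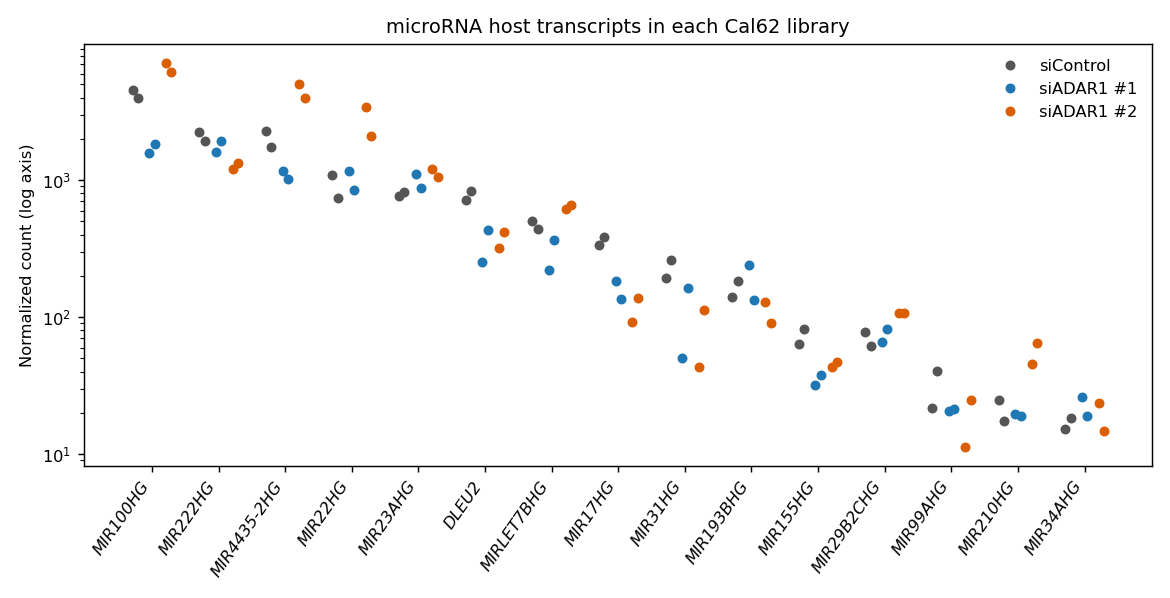
Normalized counts (vertical log axis) of 15 microRNA host transcripts (horizontal axis, ordered by level) in the 2 libraries of each transfection. MIR100HG and MIR4435-2HG are lowest with siADAR1 #1 and highest with siADAR1 #2, whereas MIR17HG and DLEU2 are below siControl in all 4 siADAR1 libraries.

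The genes whose pattern over the 6 libraries was most like each member were found among 20848 other genes by the root mean square difference of centred log2 values. For DROSHA they were PPP2R2D (0.037) and MTLN (0.049), for AGO1 LSG1 (0.030) and TTC5 (0.034), and for PRKRA PACSIN2 (0.029) and MINDY3 (0.029). XPO5 was nearest to TSFM (0.016) and SEC61A1 (0.035), AGO2 to VCP (0.028) and NDUFS3 (0.029), and TARBP2 to UAP1 (0.024) and EIF2B5 (0.038). DGCR8 was nearest to PLEKHG5 (0.037) and HEATR3 (0.039), and AGO3 to ZBTB9 (0.033) and ZNF581 (0.038). DICER1 had no gene as near, with ENSG00000251567 and BCYRN1 at 0.12, and AGO4 had RN7SL774P at 0.079 and FAM27B at 0.153.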

How the data were processed

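Poly(A)+ RNA of 6 Cal62 libraries was sequenced. The labels name 3 samples, with 2 columns each, which were taken as the 2 biological replicates given in the methods, and p-values measure the spread between these libraries. The authors trimmed reads with Atropos and counted them on GRCh38 genes in bcbio-nextgen, and the submitters' processing notes name FastQC, featureCounts and Salmon. For normalization the paper prefers gene counts that Tximport derived from Salmon. Which counts the deposited values hold is not given in the sources used here, and rounded estimates would also be whole numbers. Versions and the use of strand are not given in the sources used here. The deposited log2 values are counts that the authors divided by size factors and put through a variance-stabilizing transformation. Undoing the transformation gave whole numbers, called reads here, for 100% of values (tolerance 0.1), and 0 columns were left unused. Genes were placed with GENCODE release 44 (57830 identifiers matched, 503 did not), and microRNA sequences are from RefSeq (GRCh38.p14).

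Genes with a mean log2 value of at least log2(10) were tested, 20858 in all, with limma 3.58.1 in R 4.3.3 (eBayes with trend, two-sided, Benjamini-Hochberg), in a fit of 3 groups. This value stands for 7.617 normalized counts. Genes, lists and alternatives were chosen with earlier results of these data known. Named were the 10 genes, ADAR, EIF2AK2, list genes called in the same direction with both siRNAs, at most 4 per list by smallest adjusted p-value, and the 2 genes nearest in pattern to each member. Alternatives were other filters, scalings and variance models, voom on recovered reads, a replicate block, fits of 2 conditions, and each library left out. Steps were tested on simulated data. Limits from reads cover counting error only. Intervals of log2FC come from the limma fit and rest on the spread between libraries.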

Additional observations from a re-analysis of the deposited data

Results flagged for a closer look

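For 3 of the 10 genes the change differed between the siRNAs by a test of the difference itself (limma, adjusted p under 0.05 and a log2FC beyond 0.5). DICER1 differed by -1.48 (siADAR1 #2 minus siADAR1 #1, adjusted p = 0.000432), from a log2FC of -0.41 with siADAR1 #1 and -1.89 with siADAR1 #2. AGO1 differed by -0.81 (adjusted p = 0.00315), from 0.29 and -0.53. PRKRA differed by -0.77 (adjusted p = 0.00331), from 0.10 and -0.67. In each of these genes both siADAR1 #2 libraries were below both siADAR1 #1 libraries. Over all genes tested 32.8% were called in this comparison, and 16.1% of all genes tested were called lower with siADAR1 #2. The cause of these differences was not tested.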

How the results depend on the processing

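Counts of called genes changed with the filter, the variance model, the scaling and the libraries used. Without the filter 0 of the 10 genes and 1 list gene were called with siADAR1 #1, 2 list genes with siADAR1 #2 and 8 between the siRNAs. Without the trend of the variance 0 of the 10 and 5 list genes were called with siADAR1 #1, and 12 list genes with siADAR1 #2. The share of all genes called was 6.46% and 21.4% in these comparisons. With median-centred libraries, with quantile normalization and with the GC and length trend removed, 2 of the 10 were called with siADAR1 #1. With the last of these, 5 of the 10 were called between the siRNAs. The shares of all genes were 17.5%, 17% and 17.5% with siADAR1 #1, and 32.7% between the siRNAs with the last. The average of the changes of both siRNAs called 1 of the 10 and 14 list genes where the 4 siADAR1 libraries as 1 group called 0. Over all genes these were 3585 and 0, and 159 for 1 group without the filter. The cause of these changes was not tested. Of all genes 3502 were called with siADAR1 #1, 5541 with siADAR1 #2 and 6838 between the siRNAs, which became 548, 2103 and 3221 without the filter, and 1347 with siADAR1 #1 without the trend. Leaving out 1 library gave 392 to 3680 with siADAR1 #1 and 3150 to 5758 with siADAR1 #2, with the lowest counts without siControl replicate 1. A lone library is then assumed to vary like the other groups. Leaving out 1 library also gave 0 to 1 of the 10 and 4 to 21 list genes with siADAR1 #1, and 1 to 3 of the 10 and 12 to 22 list genes with siADAR1 #2. Between the siRNAs it gave 3 to 4 of the 10.

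In the alternatives run, no called change of a gene named here turned its sign. Those that did were not called. With siADAR1 #1, median-centring gave 0.005 for HSPA8 and 0.003 for CNOT1. With siADAR1 #2, quantile normalization gave 0.053 for XPO5, 0.133 for AGO3, 0.111 for TARBP2 and 0.324 for PABPC1, and the GC and length correction gave 0.047 for AGO3. Between the siRNAs DGCR8 was at -0.124 with median-centring and at -0.047 with the GC and length correction. Leaving out 1 library gave, with siADAR1 #1, -0.831 to 0.36 for EIF2AK2, -0.045 to 0.178 for RAN, -0.311 to 0.032 for HSPA8, -0.047 to 0.73 for LIN28B and -0.095 to 0.171 for ZSWIM8. With siADAR1 #2 it gave -0.088 to 0.051 for AGO3, -0.336 to 0.779 for AGO4, -0.134 to 0.078 for TARBP2 and -0.592 to 0.9 for EIF2AK2. Between the siRNAs it gave -0.033 to 0.043 for DGCR8 and -0.866 to 0.249 for AGO4.

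A fit with the replicate number as a block called 4086, 6038 and 7275 of all genes in the same comparisons. It called 1, 3 and 3 of the 10 genes and 23, 22 and 35 list genes, and changed no call of the 10. Among the list genes named it added 1 call, DCP1A with siADAR1 #1 (0.501), which 3 of the other alternatives also added. Differences between replicates 2 and 1 correlated by 0.106, 0.110 and 0.162 between groups over 20858 genes, and with 2 numbers per group the numbers were taken as names and not as pairs. Of 2248 values of single genes under the alternatives, 2008 kept their side and direction, 197 lost a call, 16 gained one and 27 changed sign. Each group had 2 libraries, and the depth was 30114840 to 50029763 reads.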
